A study of Mus musculus with 7 samples.

Results

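The small nucleolar RNA (snoRNA) host genes Snhg1, Snhg3, Snhg4, Snhg5, Snhg6, Snhg8, Snhg12 and Gas5 were followed across mouse embryonic stem (mES) cells treated with STM2457, an inhibitor of the m6A methyltransferase METTL3. They were chosen by symbol, and all 8 were present among the 22556 genes of the expression table. All 8 also passed the filter of a mean of at least 1 RPM (reads per 1000000 read pairs on genes) over the libraries, which left 13599 genes for testing. The study asked how METTL3 activity bears on gene silencing by Xist, the noncoding RNA that coats the inactive X chromosome, and measured chromatin-associated RNA (ChrRNA-seq). Such RNA is enriched for nascent and nuclear transcripts, and introns are counted.

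Every library came from C7H8 cells, a single iXist-ChrX_Cast clone of Cast x 129S background with 2 X chromosomes, in which a TetOn promoter replaces the endogenous Xist promoter on the Cast allele. All cultures, controls included, received doxycycline for 24 h to induce Xist, after 6 h in DMSO or inhibitor, and the same agent was kept during induction. The 7 libraries comprised 3 DMSO controls, 2 libraries at 10 µM STM2457, 1 at 20 µM and 1 at 30 µM. The cells grew on mitomycin-inactivated fibroblast feeders.

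A snoRNA host gene is transcribed by RNA polymerase II, and the snoRNAs are processed out of its introns. Box C/D snoRNAs guide 2′-O-methylation of ribosomal and small nuclear RNA, box H/ACA snoRNAs guide pseudouridylation, and a few of either class act in cleavage of the ribosomal RNA precursor. The spliced exons of these 8 genes code for no known protein, are mostly short-lived in the cytoplasm through nonsense-mediated decay, and often start with a pyrimidine tract of the kind found in messenger RNAs for ribosomal proteins.

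GENCODE M21 (GRCm38) placed 29 separate snoRNA loci on the sense strand inside the 8 genes as the table delimits them. Gas5 held 9 and Snhg1 held 8, Snhg12 held 4, Snhg3, Snhg4 and Snhg5 held 2 each, and Snhg6 and Snhg8 held 1 each. Of these, 1 locus in Gas5 and 1 in Snhg4 carry microRNA names. By sequence letters, 16 loci had both a C box (TGATGA within the first 20 bases) and a D box (CTGA within the last 15 bases), 6 had neither of these but an ACA near the 3′ end, and 7 matched neither pattern. The snoRNAs covered 23.4% of the span of Snhg3 and 21.9% of Snhg1, against 4.15% of Snhg6. The table has 3 rows with snoRNA or scaRNA names, all listed at 0 in every library, and no gene in it is shorter than 221 bases. The values below are therefore those of whole host rows, in which mature snoRNA, intron and spliced exon cannot be told apart. In such bulk RNA, fewer cells of a type and less RNA per cell cannot be told apart either.

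**Figure D1:**
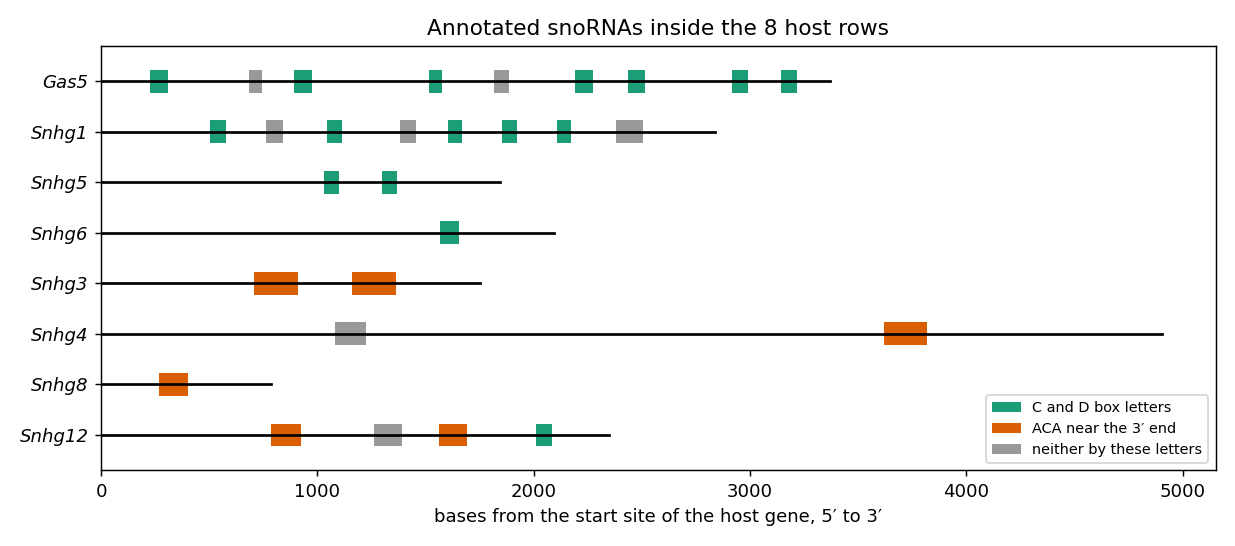
Map of the annotated snoRNAs inside the 8 host genes, drawn 5′ to 3′ in bases from each start site, with the host as a line and each snoRNA as a box coloured by the motif letters found. Gas5 and Snhg1 carry rows of C/D-type loci, while Snhg3, at 1754 bases, holds 2 long loci with an ACA end.

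One snoRNA of each of 5 hosts, and the second copy in Snhg3, are given to show what the host introns carry, 5′ to 3′ from the GENCODE transcripts, with the C box and D box, or the ACA, in capitals. Snord47 and Snord87 guide ribosomal RNA methylation, and Snora73 is the U17 snoRNA, which acts in cleavage of the ribosomal RNA precursor.
Snord47 (in Gas5, chr1:161038082-161038158, plus strand): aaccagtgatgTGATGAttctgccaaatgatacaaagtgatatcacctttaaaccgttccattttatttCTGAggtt
Snord50a (in Snhg5, chr9:88521529-88521600, minus strand): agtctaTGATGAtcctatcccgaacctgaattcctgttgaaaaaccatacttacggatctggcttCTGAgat
Snord87 (in Snhg6, chr1:9942463-9942549, minus strand): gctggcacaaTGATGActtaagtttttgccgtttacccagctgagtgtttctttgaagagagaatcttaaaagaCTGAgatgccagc
Snora24 (in Snhg8, chr3:123507937-123508066, minus strand): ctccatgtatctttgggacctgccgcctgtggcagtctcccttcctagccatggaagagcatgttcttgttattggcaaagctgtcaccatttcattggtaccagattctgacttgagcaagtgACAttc
Snora73a (in Snhg3, chr4:132352775-132352979, minus strand): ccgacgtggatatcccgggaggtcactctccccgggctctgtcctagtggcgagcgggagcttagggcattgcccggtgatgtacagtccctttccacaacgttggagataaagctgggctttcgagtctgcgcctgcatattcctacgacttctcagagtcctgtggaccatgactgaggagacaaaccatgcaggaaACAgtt
Snora73b (in Snhg3, chr4:132352322-132352526, minus strand): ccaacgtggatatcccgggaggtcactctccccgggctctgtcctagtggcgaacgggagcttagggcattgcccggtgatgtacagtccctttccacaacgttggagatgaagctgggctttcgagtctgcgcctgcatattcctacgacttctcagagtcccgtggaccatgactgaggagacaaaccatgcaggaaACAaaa
The 2 copies of Snora73 in Snhg3 differed at 7 of 205 positions. Snord50a and Snord50b in Snhg5 differed at 1 of 72 positions. The authors kept unique alignments only, so reads that fit both copies equally are not counted, although both copies lie in the same host row.

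RefSeq promoters (GRCm38.p6) were found for 6 of the 8 genes, each with its start at the start used in the table. They are shown from position -45 to +50 because these hosts are known for an unusual start region. Capitals mark TATA (the same letters on both strands) and, near the start, a run of at least 5 C or T that begins with C.
Gas5 (chr1:161035121-161035215, plus strand): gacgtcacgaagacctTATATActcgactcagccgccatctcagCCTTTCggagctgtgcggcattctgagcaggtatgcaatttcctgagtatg
Snhg1 (chr19:8723442-8723536, plus strand): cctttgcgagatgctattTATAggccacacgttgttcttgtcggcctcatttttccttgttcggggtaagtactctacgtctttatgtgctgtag
Snhg5 (chr9:88522848-88522942, minus strand): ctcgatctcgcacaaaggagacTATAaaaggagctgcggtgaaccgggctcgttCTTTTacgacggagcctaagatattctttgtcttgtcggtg
Snhg3 (chr4:132353637-132353731, minus strand): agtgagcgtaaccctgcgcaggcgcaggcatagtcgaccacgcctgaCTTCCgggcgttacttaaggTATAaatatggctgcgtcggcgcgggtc
Snhg8 (chr3:123508287-123508381, minus strand): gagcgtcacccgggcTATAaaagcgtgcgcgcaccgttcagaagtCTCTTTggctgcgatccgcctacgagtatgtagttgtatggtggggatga
Snhg12 (chr4:132308633-132308727, plus strand): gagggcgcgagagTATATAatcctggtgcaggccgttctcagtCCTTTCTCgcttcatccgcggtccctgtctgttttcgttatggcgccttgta
TATA lay between -45 and -16 in 5 of the 6, the exception being Snhg3, where it began at +23. The same window held TATA in 6.72% of 32851 RefSeq promoters of 300 bases and in 3.29% of the 13109 promoters of tested genes. A pyrimidine run that began with C between -5 and +10 was found in 5 of the 6, all but Snhg1, against 23.2% of all promoters. In the longest spliced GENCODE transcript the letters GGACT, a frequent form of the m6A consensus, were found once each in Gas5 and Snhg6 and not in the other 5 genes with a transcript, on the sense strand. They occurred in 62.8% of 8652 noncoding transcripts within the same range of lengths.

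The libraries held between 9300549 (20 µM) and 28030180 (DMSO replicate 2) read pairs on genes. Principal component 1 of 13095 other autosomal genes took 78.8% of the variance and divided the libraries into DMSO replicates 1 and 2 with both at 10 µM (set 1, 4 libraries) and DMSO replicate 3 with 20 µM and 30 µM (set 2, 3 libraries). Doses of 10 µM and of 20 or 30 µM therefore never occur in the same set, and each set has its own DMSO. Of 7 mES cell markers, 6 were present in every library, whereas Sox2, which lies inside Sox2ot on the same strand, was listed at 0 throughout. The summed level of 10 feeder fibroblast markers was between 20.1 and 28.2 RPM, most of it Fbn1, and the defining collagens Col1a1, Col1a2 and Col3a1 stayed at or below 0.942 RPM. Ribosomal protein genes, as a sign of cytoplasmic RNA, made up 0.537% and 0.585% of DMSO replicates 1 and 2, 0.594% and 0.748% at 10 µM, and 0.297% to 0.430% of set 2.

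Per kilobase of gene span, Gas5 was the most abundant host in DMSO at 245 ± 61.2 RPM per kb (SD, n = 3), followed by Snhg3 at 208 ± 115, Snhg1 at 115 ± 23.8 and Snhg5 at 62.0 ± 4.29. Snhg4 at 45.7 ± 7.29, Snhg12 at 40.6 ± 11.2, Snhg8 at 28.5 ± 14.8 and Snhg6 at 21.0 ± 6.14 RPM per kb (SD, n = 3) came after them. Snhg1 exceeded Snhg5, and Snhg12 exceeded Snhg8, in 7 of 7 libraries. Gas5 exceeded Snhg3 in 5 of 7, all but the 10 µM libraries. Snhg3 exceeded Snhg1 in the 4 libraries of set 1, at 267 to 410 against 128 to 155 RPM per kb, and lay below it in the 3 of set 2, and Snhg8 stood to Snhg6 in the same way, so the order of these pairs turned between the library sets. Snhg5 exceeded Snhg4, and Snhg4 exceeded Snhg12, in 6 of 7.

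The first comparison asked whether the hosts changed at 10 µM, the only dose with replicates. All 8 had a higher mean at 10 µM than in DMSO. The median difference over all tested genes was also above 0, at 0.09 on the log2 scale, and Snhg5 lay below it at 0.04. With all 3 DMSO libraries none of the 8 passed the test (limma on log2(RPM + 1), Benjamini-Hochberg adjusted p from 0.811 to 0.926). The background was the same, with 0 of 13599 genes called (0%; 212 at an unadjusted p under 0.05, 0 called by edgeR without pairing and 1 by DESeq2). Replicates 1 and 2 were parallel cultures of the same batches of cells in DMSO and at 10 µM. When that number entered the fit as a block, leaving only these 4 libraries, 6 of the 8 rose (Snhg1, Snhg3, Snhg4, Snhg6, Snhg12 and Gas5) and none fell, against 4.13% of all tested genes higher and 3.38% lower. This fit has 1 residual degree of freedom, and its estimate of spread came from all genes of like level. The SE and limma p-values of this fit therefore do not measure how closely the pairs of a given host agreed. With the same block, edgeR on recovered read pairs called Snhg3, Snhg4 and Snhg6 (3 of 8; background 3.11% higher and 3.04% lower), and limma after TMM scaling called the same 3 (background 2.88% higher and 3.47% lower).

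**Figure D2:**
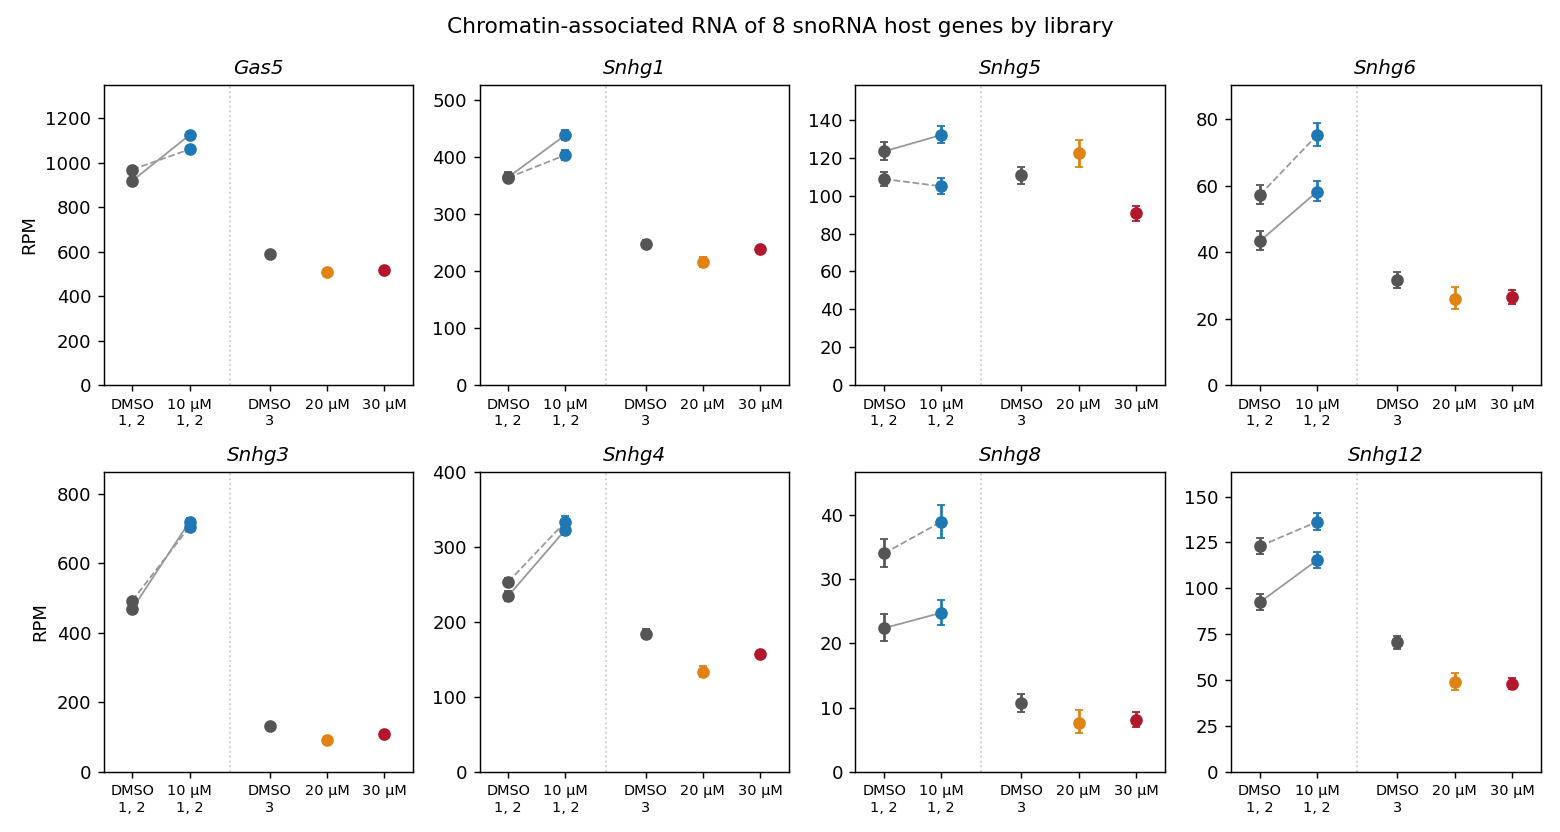
RPM of the 8 host genes in each of the 7 libraries, with a linear axis from 0 and error bars for the exact 95% Poisson interval of the read pairs. Solid and dashed lines join replicates 1 and replicates 2, and a dotted line divides the library sets. In the panels of 7 hosts, all but Snhg5, the 3 libraries on the right lie below the 4 on the left.

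Among the hosts of C/D snoRNAs, Gas5, first found as a transcript that accumulates in growth-arrested cells, had 919, 970 and 590 RPM in DMSO replicates 1, 2 and 3. It had 1125 and 1061 RPM in the 10 µM replicates, 508 RPM at 20 µM and 517 RPM at 30 µM. Both 10 µM libraries stood above all 3 DMSO libraries, and both higher doses stood below them. Within pairs Gas5 was 1.22-fold and 1.09-fold higher at 10 µM, and the blocked difference was 0.21 ± 0.06 on the log2 scale (SE; limma adjusted p = 0.0194, 0.488 with edgeR).

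Snhg1, the host of a cluster that includes Snord22, had 365, 364 and 248 RPM in DMSO, 439 and 404 RPM at 10 µM, 216 RPM at 20 µM and 238 RPM at 30 µM. As for Gas5, both 10 µM libraries stood above all 3 DMSO libraries and both higher doses below them. The blocked difference was 0.21 ± 0.06 (SE, log2; limma adjusted p = 0.0205, 0.347 with edgeR), from pairs at 1.20-fold and 1.11-fold.

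Snhg6, the host of Snord87 whose sequence is given above, had 43.3, 57.2 and 31.5 RPM in DMSO and 58.2 and 75.2 RPM at 10 µM. Replicate 2 exceeded replicate 1 by a similar factor under both conditions, so that the lower 10 µM library lay close to the highest DMSO library. Within pairs the ratios were 1.34 and 1.31, and the blocked difference was 0.40 ± 0.09 (SE, log2; limma adjusted p = 0.000301, 0.00248 with edgeR). At 20 µM and 30 µM Snhg6 had 26.0 and 26.4 RPM, below every DMSO library.

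Snhg5, which carries Snord50a and Snord50b, was the exception. It had 123, 109 and 111 RPM in DMSO, 132 and 105 RPM at 10 µM, 122 RPM at 20 µM and 90.6 RPM at 30 µM. The groups overlapped, and the pairs went in opposite directions (1.07-fold and 0.964-fold). The blocked difference was 0.02 (95% interval -0.12 to 0.17 on the log2 scale; limma adjusted p = 0.904), and its sign turned with TMM scaling (-0.01 with the block).

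Among the hosts of H/ACA snoRNAs, Snhg3 had the largest differences of the 8 within the 10 µM pairs and between DMSO replicate 3 and the other DMSO libraries. It had 469 and 492 RPM in DMSO replicates 1 and 2 but 132 RPM in DMSO replicate 3, and 719 and 705 RPM at 10 µM. At 20 µM and 30 µM it had 92.4 and 107 RPM. No 10 µM value overlapped a DMSO value, and the DMSO libraries themselves differed more than any inhibitor library differed from the DMSO library of its own set. The pairs gave ratios of 1.54 and 1.43, with a blocked difference of 0.57 ± 0.06 (SE, log2; limma adjusted p = 1.95e-16, 0.000653 with edgeR). The unpaired difference was 1.19 ± 0.56 (SE, log2; adjusted p = 0.811).

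Snhg4, the host of Snora74a, had 235, 253 and 184 RPM in DMSO and 323 and 334 RPM at 10 µM. At 20 µM and 30 µM it had 133 and 157 RPM. The 3 groups did not overlap, with 10 µM highest. The pairs agreed closely at 1.38-fold and 1.32-fold, and the blocked difference was 0.43 ± 0.06 (SE, log2; limma adjusted p = 1.29e-08, 0.00404 with edgeR).

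Snhg8, the shortest host at 785 bases and the carrier of Snora24, had 22.4, 34.0 and 10.7 RPM in DMSO and 24.8 and 38.9 RPM at 10 µM. The 10 µM and DMSO values overlapped. The pairs were at 1.11-fold and 1.15-fold, and the blocked difference of 0.17 ± 0.11 (SE, log2) did not pass the test (limma adjusted p = 0.422). Snhg8 had 7.63 RPM at 20 µM, from 71 read pairs (exact 95% Poisson interval 5.96 to 9.63 RPM, for counting error only), and 8.13 RPM at 30 µM (7.02 to 9.37).

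Snhg12, which carries snoRNAs of both classes, had 92.5, 123 and 70.5 RPM in DMSO and 115 and 136 RPM at 10 µM. DMSO replicate 2 lay above 10 µM replicate 1, so the groups overlapped. Within pairs Snhg12 was 1.25-fold and 1.11-fold higher, and the blocked difference was 0.23 ± 0.07 (SE, log2; limma adjusted p = 0.0267, 0.160 with edgeR). It had 49.1 RPM at 20 µM and 48.1 RPM at 30 µM, both below every DMSO library.

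In all, 7 of the 8 were higher at 10 µM in both pairs, which 36.3% of all tested genes also were, and 5 of the 8 had both 10 µM libraries above all 3 DMSO libraries, against 16.6%. The median blocked difference of the 8 was 0.22 on the log2 scale, beside 0.03 over all tested genes. TMM scaling moved these medians to 0.19 and 0.00. Before that scaling, the 10th to 90th percentiles over all tested genes were -0.20 to 0.27. The blocked differences of Snhg3, Snhg4 and Snhg6 lay above that range, and those of the other hosts, Snhg1, Snhg12 and Gas5 included, lay within it. Of 77 tested ribosomal protein genes, 32 rose and none fell in the same fit (18 rose in edgeR), with a median of 0.22 as well. The feeder marker sum was also higher at 10 µM in both pairs, at 23.2 and 25.6 RPM in replicate 1 and at 23.4 and 28.2 RPM in replicate 2. None of its 3 tested markers passed. Most of the sum was Fbn1, at 17.3 and 19.8 RPM in replicate 1 and at 19.8 and 22.5 RPM in replicate 2. Thy1 and Col1a1 were lower at 10 µM in pair 1 and higher in pair 2. Col1a2 was higher in both pairs and Col3a1 in neither. The part of cytoplasmic RNA and of feeders in the hosts' difference was not tested. DMSO replicate 3 accounted for much of the spread among controls. It was below both other DMSO libraries for 7 of the 8 (55.5% of all tested genes), from 0.274 of their mean in Snhg3 to 0.755 in Snhg4, and at 0.954 of it in Snhg5. For the same 7 hosts, all but Snhg5, each library of set 2 lay below each library of set 1, which 39.8% of tested genes did. Of the 6 mES cell markers present, 5 were also lower in DMSO replicate 3 than in both other DMSO libraries, from Dppa5a at 5.96 RPM against 31.6 and 36.3 RPM to Nanog at 76.1 RPM against 81.9 and 84.4 RPM, and Zfp42 was higher. The ribosomal protein share was lower there too. Their part in the result was not tested.

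**Figure D3:**
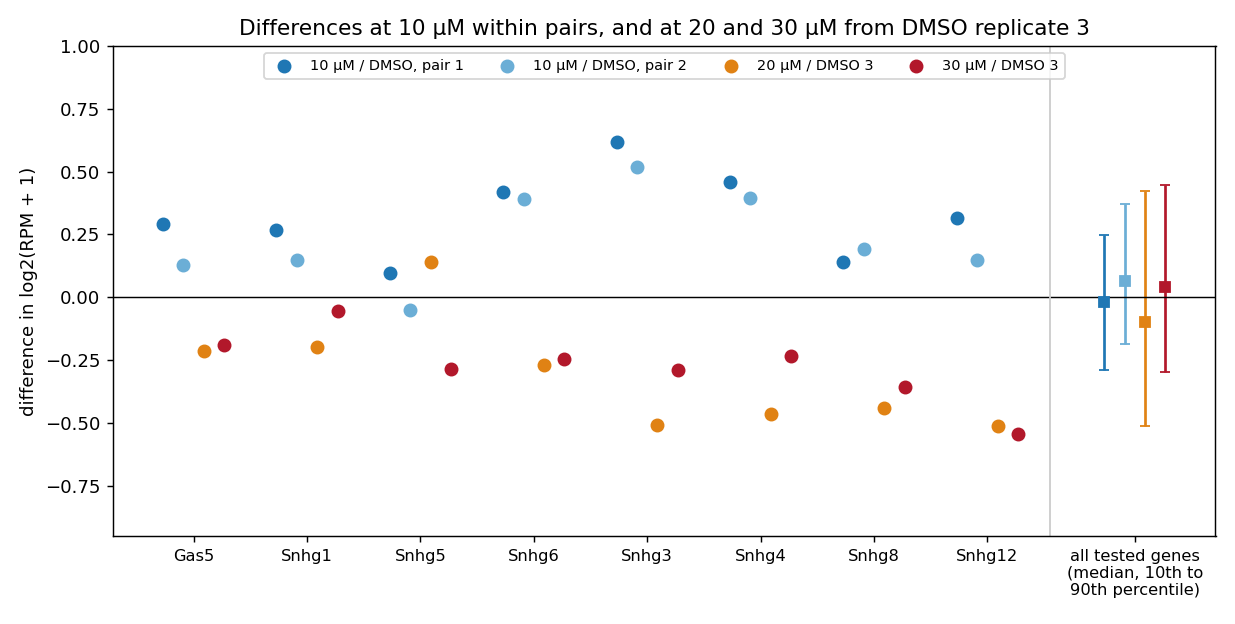
Differences in log2(RPM + 1) for each host at 10 µM from the DMSO library of the same replicate, and at 20 µM and 30 µM from DMSO replicate 3, with the median and the 10th to 90th percentiles of all 13599 tested genes at the right. Points for 10 µM are above 0 for all but pair 2 of Snhg5, and points for 20 µM and 30 µM are below 0 for all but 20 µM of Snhg5.

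The second comparison asked about higher doses. With 1 library each at 20 µM and 30 µM there is no test, and the values are set beside DMSO replicate 3, the control of the same library set. At 20 µM, 7 of the 8 were lower than DMSO replicate 3 (61.7% of all tested genes were), and at 30 µM all 8 were (43.2%). The ratios ran from 0.697 in Snhg12 to 1.10 in Snhg5 at 20 µM, with a median of 0.775, and from 0.682 in Snhg12 to 0.962 in Snhg1 at 30 µM, with a median of 0.828. Over all tested genes the medians were 0.927 and 1.03. None of the 8 was lower by more than 1.5-fold at either dose, which 7.25% and 2.60% of tested genes were.

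A group of 6 abundant transcripts, Xist, Lars2, Cmss1, Gphn, Cdk8 and Camk1d, took 9.33% of the 20 µM library and 1.48% or less of every other, which lowers all other RPM values there. With the total taken without these 6 genes, 7 of the 8 were still below DMSO replicate 3 at 20 µM, with ratios such as 0.936 for Gas5 and 0.762 for Snhg3, while the share over all tested genes moved to 48.8%. Both higher doses were below all 3 DMSO libraries for the same 7 hosts, all but Snhg5, against 21.7% of tested genes. For these hosts DMSO replicates 1 and 2 stood above every library of set 2. Their count therefore adds nothing to the comparison with DMSO replicate 3. For none of the 8 were all 4 inhibitor libraries on one side of all 3 DMSO libraries (1.94% of tested genes were all above and 1.87% all below).

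The third comparison fitted a slope per 10 µM over all 7 libraries. The slope was below 0 for all 8, from -0.07 in Snhg5 to -0.60 in Snhg3 on the log2 scale, beside a median of -0.04 over all tested genes. None of the 8 passed the test (adjusted p from 0.508 to 0.596). No gene in the table passed it either (0%; 1174 at an unadjusted p under 0.05, 0 called by edgeR and 129 by DESeq2). Without DMSO replicate 3, the slopes of Snhg3 (adjusted p = 0.0378), Snhg8 (0.0370), Snhg12 (0.0404) and Gas5 (0.0429) passed as lower, against 11.3% of all tested genes, but dose and library set then cannot be told apart. With the library set as a term, the slopes lay between -0.12 and 0.01 and none of the 8 passed (0.125% of tested genes were lower). The blocked fit gave the same slopes and also called none of the 8 (0.250% of tested genes).

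The slope within set 2 minus that within set 1 was below 0 for all 8, and its median over all tested genes was -0.02. It was -0.69 ± 0.15 (SE, log2 per 10 µM) for Snhg3 and -0.53 ± 0.16 for Snhg4. In limma none passed the adjustment over all genes (adjusted p = 1.00 for both; 0% of tested genes called, 123 genes at an unadjusted p under 0.05, of which 4 were hosts). The interaction is thus not shown for any host. As a description made after the values were seen, 7 of the 8, all but Snhg5, were both higher at 10 µM in each pair and lower at 20 µM and 30 µM than DMSO replicate 3, and 7.68% of tested genes had this pattern.

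Of the 7 annotated genes that overlap a host or start beside one, 4 had a row in the table, and none of these 4 passed the test at 10 µM. Zbtb37 has a GENCODE start 317 bases from that of Gas5 on the opposite strand. Its row starts further away, at position 161034259 against 161035166 for Gas5. Zbtb37 had 51.3, 48.6 and 56.6 RPM in DMSO, 53.8 and 46.2 RPM at 10 µM, 43.1 RPM at 20 µM and 54.9 RPM at 30 µM. Its blocked difference was 0.00 ± 0.09 (SE, log2; limma adjusted p = 0.995). Slc3a2, an amino acid transporter subunit, has a GENCODE start 118 bases from that of Snhg1 on the opposite strand. Its row starts further away, at position 8713897 against 8723487 for Snhg1. Slc3a2 went from 76.7 and 85.7 RPM in the paired DMSO libraries to 72.4 and 115 RPM at 10 µM (limma adjusted p = 0.185 with the block).

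Rcc1, a guanine nucleotide exchange factor whose GENCODE gene includes 1673 bases of Snhg3 on the same strand, lay between 20.1 and 24.7 RPM in all 7 libraries, with a blocked difference of 0.10 ± 0.12 (SE, log2; limma adjusted p = 0.695). Mcmdc2, which GENCODE has meeting Snhg6 tail to tail with an overlap of 61 bases, had 15.5 and 17.2 RPM in the paired DMSO libraries and 11.5 and 15.2 RPM at 10 µM (limma adjusted p = 0.232 with the block). As the table delimits them, the rows of Rcc1 and Snhg3, and of Mcmdc2 and Snhg6, share 0 bases, and the genes that GENCODE annotates over Snhg4 on the same strand have no row.

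Other genes that carry snoRNAs in their introns were described by list. Of 16 further noncoding hosts, 8 were in the table and were tested. With the block 4 rose at 10 µM (Snhg7, Snhg10, Snhg18 and Dancr) and none fell, in limma and in edgeR alike, with a median difference of 0.37 on the log2 scale. Rian, an imprinted host of many C/D snoRNAs, was the most abundant at 4518 and 4732 RPM in the paired DMSO libraries and 4068 and 4561 RPM at 10 µM, and did not pass (limma adjusted p = 0.462). Snhg7 had 60.8 and 76.2 RPM in DMSO and 75.5 and 96.7 RPM at 10 µM (0.32 ± 0.08, SE, log2; limma adjusted p = 0.00249), and 2410006H16Rik had ratios of 1.07 and 1.05 (limma adjusted p = 0.590).

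Of 41 symbols for protein-coding hosts, 40 were tested. They include Rcc1, whose row shares 0 bases with that of Snhg3, where Snora73a and Snora73b lie. With the block 20 rose and none fell in limma, 8 rose in edgeR, and the median was 0.22. The 20 that encode ribosomal proteins accounted for 12 of the limma calls (6 in edgeR) and had a median of 0.25, close to the 0.22 of all tested ribosomal protein genes. The other 20 had 8 limma calls (2 in edgeR) and a median of 0.12. Of the 3 most abundant, Eif4a2, a translation initiation helicase, had 1038 and 1227 RPM in DMSO and 1287 and 1363 RPM at 10 µM (limma adjusted p = 0.00972, 0.462 with edgeR). Taf1d, a subunit of an RNA polymerase I factor, did not pass (limma adjusted p = 0.0891). Ncl, which encodes nucleolin, was level within pairs (0.976-fold and 0.999-fold), but stood at 862 RPM in DMSO replicate 3, 2949 RPM at 20 µM and 1095 RPM at 30 µM against 328 to 371 RPM in set 1. Its set 2 values thus stood above its set 1 values, where those of 7 of the 8 noncoding hosts chosen by symbol, all but Snhg5, stood below. Ncl does not stand for its list in this. Each library of set 2 lay below each of set 1 for 24 of the 40 tested protein-coding hosts. These were 16 of the 20 that encode ribosomal proteins and 8 of the other 20, beside 39.8% of all tested genes.

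Genes for the proteins that bind and assemble snoRNAs, and for the decay of spliced host RNA, mostly did not pass. Of 9 symbols for snoRNP core proteins 8 were tested, and 1, Nop10 of the H/ACA particle, rose with the block (0.72 on the log2 scale, limma adjusted p = 0.000615). The most abundant, Nop58, Dkc1 and Nop56, had pair ratios between 1.02 and 1.16, and none of them passed. Nop58, Dkc1 and Nop56 are also among the protein-coding hosts above. None of the 10 snoRNP assembly genes and none of the 10 nonsense-mediated decay genes passed in limma or edgeR with the block, and their medians were 0.04 and -0.02. Smg1, the decay kinase, had 554 and 592 RPM in the paired DMSO libraries and 590 and 588 RPM at 10 µM.

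**Figure D4:**
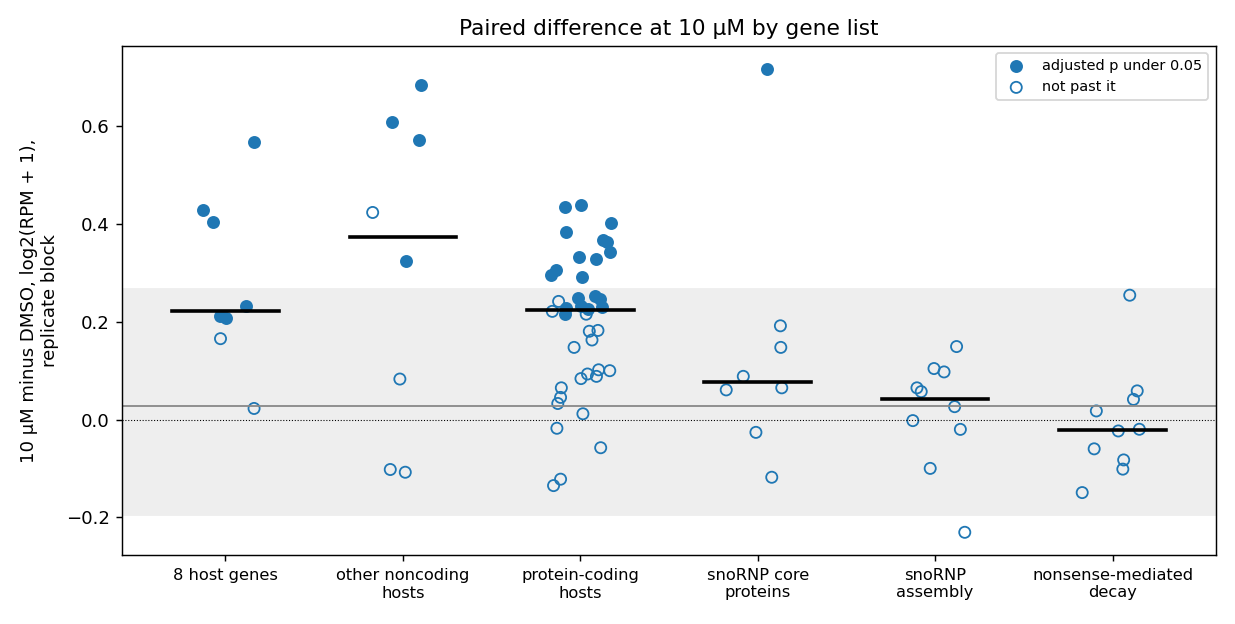
Blocked difference in log2(RPM + 1) at 10 µM for each tested gene of 6 lists, filled where the limma adjusted p was under 0.05. Black bars are list medians, and the grey line and band are the median and the 10th to 90th percentiles of all tested genes. The 8 hosts and both lists of further hosts have medians from 0.22 to 0.37, against -0.02 to 0.08 for the 3 protein machinery lists. Protein-coding hosts that encode no ribosomal protein have a median of 0.12. Nop56, Nop58 and Dkc1 are plotted both as protein-coding hosts and as snoRNP core proteins.

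Across the 7 libraries, the 8 hosts had like profiles apart from Snhg5. Pearson's r of a host's log2(RPM + 1) with the mean of the other 7 lay between 0.964 and 0.993 for all but Snhg5, at 0.297. These values describe 7 libraries that share the division into sets, which a large share of genes follows. Over all other tested genes, 1335 (9.82%) had an r of at least 0.95 with the mean profile of the 8. The 5 with the highest were Cnksr2, Cebpzos, Ydjc, Foxred1 and Sfxn1, all at 0.996 to 0.997, of which Foxred1 went from 37.0 and 39.6 RPM in the paired DMSO libraries to 48.0 and 51.5 RPM at 10 µM, and had 16.7, 14.1 and 14.0 RPM in DMSO replicate 3, at 20 µM and at 30 µM.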

How the data were processed

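ChrRNA-seq libraries of C7H8 mES cells were used. Per the study's methods, the authors removed ribosomal RNA reads with Bowtie2, aligned the rest with STAR to mm10 with strain variants masked, counted read pairs per gene over whole transcripts by strand with featureCounts, and deposited RPM (scaled to 1000000 read pairs on genes). Whole read pairs were recovered for 100% of the values above 0 (within 0.1 read pair). File starts count from 0, and 1 was added. The allelic ratio table was not used, since no host is X-linked.

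The members and gene lists were chosen with earlier results of these data known. The test was limma 3.58.1 on log2(RPM + 1) for genes averaging 1 RPM or more, with p-values adjusted over all of them (Benjamini-Hochberg, threshold 0.05). Fold changes on this scale understate those of low genes. edgeR 4.0.16 and DESeq2 1.42.0 on recovered read pairs were alternatives. Library sets were taken from principal component 1 after the values were seen. The labels number DMSO and 10 µM replicates 1 and 2 alike, the study's methods have these split from the same cells, and the difference between replicates 1 and 2 correlated at 0.621 over genes between DMSO and 10 µM. All cultures are of 1 clone, so p-values measure no spread between clones. In fits with DMSO replicate 3 but no block or set term, the spread holds the difference between library sets besides that between cultures. The blocked limma fit at 10 µM takes its spread from all genes of like level. Named genes were the 8 hosts and their neighbours in GENCODE, starting within 1 kb on the opposite strand or overlapping. The 3 of each list with the highest mean RPM and the 5 most similar profiles were also named. Others named (Nop10, Snhg10, Snhg18, Dancr, Dppa5a) were chosen after their values were seen. Rps6k kinase rows were left out of the ribosomal protein sum after the values were seen. Scripts were tested on simulated data. Alternatives were TMM scaling, a pseudocount of 0.1 RPM, filters of 5 RPM or none, the total without 6 abundant genes, eBayes without trend and leaving out each replicate.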

Additional observations from a re-analysis of the deposited data

How the results depend on the processing

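The number of genes called at 10 µM was 0 with all 3 DMSO libraries and did not change with edgeR, TMM scaling, a pseudocount of 0.1 RPM, either filter, the total without 6 abundant genes or eBayes without trend, and was 1 with DESeq2 and with DMSO replicates 1 and 2 only. With the replicate block it was 1020 (837 in edgeR, 864 after TMM scaling and 1023 with a pseudocount of 0.1 RPM, the last 3 chosen after the values were seen). Leaving out 1 replicate gave 0 to 1 genes. For the slope it was 0, against 129 with DESeq2, 27 with the library set as a term, 58 with the replicate block and 0 to 2485 when 1 replicate was dropped, with DMSO replicate 3 giving the highest. The counts of hosts below DMSO replicate 3 at both higher doses (7) and set apart from all DMSO libraries (0) did not change with the total without 6 abundant genes or TMM scaling. Of all tested genes, 34.1% were below DMSO replicate 3 at both higher doses in RPM. That share was 30.2% with the total without 6 abundant genes and 37.4% after TMM scaling.

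Of 280 values of single hosts under the alternatives, 248 kept their direction and their side of the threshold, 22 passed it only under the alternative and 10 turned in sign, none of them past the threshold. Those were Snhg5 at 10 µM with edgeR without pairing (-0.037), DESeq2 (-0.043), TMM scaling (-0.048, and -0.011 with the replicate block) and without 10 µM replicate 1 (-0.12, against 0.21 without replicate 2), the slopes of Snhg1 (0.012) and Snhg3 (0.0019) with the library set or the replicate block, and the slope of Snhg5 without 30 µM (0.048). The cause was not tested. The 10 µM libraries lie at the mean dose, so leaving one out leaves a slope as it was, and these slopes are counted in the 280. At 10 µM, leaving out DMSO replicate 3 and keeping DMSO replicates 1 and 2 only are the same fit, and both are counted. Depth limits Snhg8 most, with 71 read pairs at 20 µM.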
